A study of Drosophila melanogaster with 8 samples.

Results

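Transcripts of 7 genes that turn neuropeptide precursors into active peptides and release them were examined in sorted clock neurons of adult Drosophila brains. The genes are amon, svr, Phm, Pal1, Pal2, Cadps and dimm. They were chosen by name, and all 7 were found among the 17868 genes of the deposited tables and passed the filter on low counts, which left 9999 genes.

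All 8 libraries were polyadenylated RNA from flies of a single genotype, carrying ClkGAL4 (Bloomington stock 93198), UAS-GFP-NLS and UAS-mor-RNAi (stock 34919). Clk-GAL4 drives expression in circadian pacemaker neurons, so the nuclear green fluorescent protein that marks the cells for sorting and the RNA interference against mor were expressed in the same neurons. Flies had 5 days of 12 h light and 12 h dark, and 2 libraries were collected at each of 4 circadian times (CT0, CT6, CT12 and CT18, in h) on day 2 in constant darkness. About 2000 GFP-positive, DAPI-negative cells were sorted per library. No source used here gives the age of the flies, and control libraries were not analysed here. The comparison across times asks whether these transcripts change over the circadian day.

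Neuropeptides are made as long precursors that enter dense-core vesicles and are cut, trimmed and modified there. The prohormone convertase amon cuts precursors at pairs of basic residues, and the carboxypeptidase svr removes the basic residues left at the new end. Many fly peptides are then amidated at the C terminus: Phm, a copper-dependent monooxygenase, hydroxylates the terminal glycine, and the lyases Pal1 and Pal2 split it to leave the amide. Mammals carry both activities in a single protein, while flies use separate genes. Cadps encodes the fly CAPS protein, which acts in calcium-dependent release of dense-core vesicles, and dimm is a basic helix-loop-helix factor that promotes the neurosecretory state and is known to raise Phm expression in flies. Peptides such as Pdf carry timing signals between clock neurons.

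Libraries held between 15006258 and 29346348 estimated counts. The targeted gene mor lay between 4.14 and 21.8 CPM (counts scaled by TMM library size). With no control genotype analysed, that range does not check the knockdown. What the replicates of a time share is not in the labels, so a p-value reflects the spread among these libraries, which may be technical. Libraries differed in a trend with gene length: across 5766 genes, each library's deviation from the mean gave a Spearman correlation with effective gene length that ran from -0.56 (CT18 replicate 2) to 0.68 (CT6 replicate 1). The precursor gene Pdf lay at 292 TPM (a level per length, with the same total in each library) in CT6 replicate 1 and at 4590 TPM in CT18 replicate 1, against 93400 TPM at the highest, in CT6 replicate 2. The 8 clock neuron markers, each detected, summed to between 1015 and 94017 TPM, with Pdf the highest of them in all 8 libraries. Of 8 glial markers, 3 stayed under 1 TPM in every library, among them the glial factor repo, which reached at most 0.261 TPM. The rest had mean levels of 60.9 TPM (nrv2), 50.8 TPM (Gs2), 18.8 TPM (Eaat1), 4.49 TPM (alrm) and 3.07 TPM (wrapper). Other summed marker levels ran from 1095 to 1953 TPM for 5 neuron markers, from 84.4 to 207 TPM for 8 glial markers, from 22.8 to 289 TPM for 8 photoreceptor markers, from 5.71 to 43.5 TPM for 7 hemocyte markers and from 3.35 to 9.71 TPM for 6 fat body markers. A list of 10 markers of other neurosecretory cells summed to between 1569 and 36256 TPM. Crz was the highest of them in 7 libraries, Eh reached 5847 TPM in CT18 replicate 1 against at most 19.7 TPM elsewhere, and Burs was at 0 in every library. Apart from fits with the length trend removed, the part of these differences in the results was not tested.

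All 7 genes were detected in every library, and their levels spanned a wide range. Pal2 was the highest, at 3616 ± 766 TPM (SD, n = 8), rank 21 of all genes by mean TPM. Phm followed at 1328 ± 92.0 TPM, at rank 120, and svr at 534 ± 121 TPM, at rank 330. Pal2 and Phm thus stood well above the convertase: amon lay at 176 ± 79.0 TPM, at rank 922. Cadps lay at 111 ± 34.7 TPM and Pal1 at 69.2 ± 8.96 TPM. The transcription factor dimm was the lowest, at 15.6 ± 5.95 TPM, at rank 4782, with between 325 and 1462 estimated counts per library.

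Neighbours in this order kept it in 8 of 8 libraries for Pal2 over Phm, Phm over svr, svr over amon and Pal1 over dimm. They kept it in 7 of 8 for amon over Cadps and for Cadps over Pal1, so the level of Cadps does not separate from those of amon and Pal1 in every library. The lowest amon value, 109 TPM, lay above the highest Pal1 value, 85.1 TPM. The convertase's binding partner 7B2 lay at 3784 ± 551 TPM (SD, n = 8), 21.5 times amon in mean TPM and between 11.4 and 29.6 times in single libraries.

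**Figure D1:**
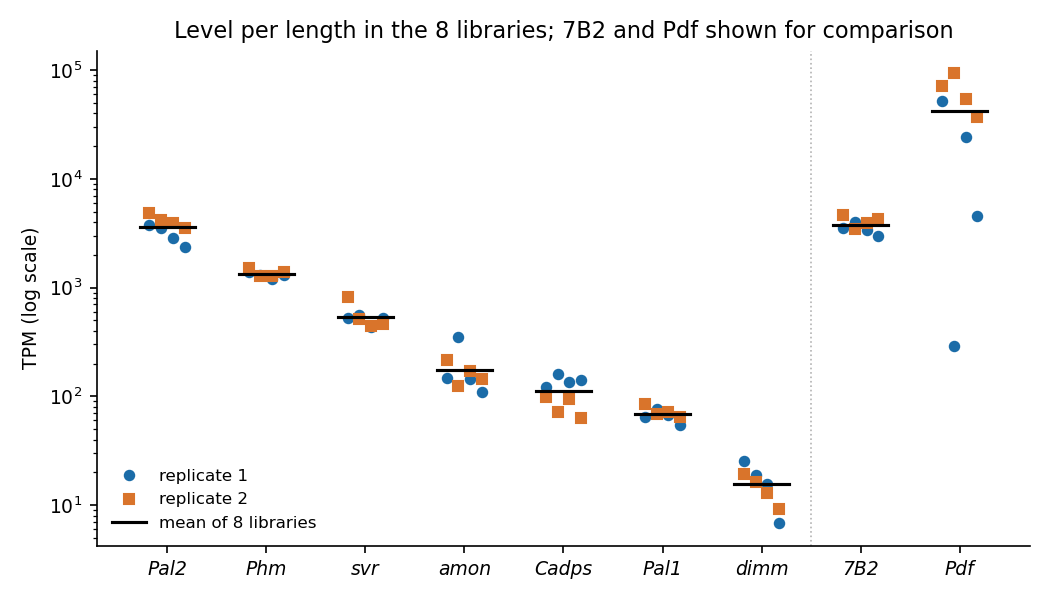
Level per length (TPM, log axis) of the 7 genes and, right of the dotted line, of 7B2 and Pdf. Each point is a library, from CT0 to CT18 from left to right within a gene, and the bar is the mean of 8 libraries. Pal2 and 7B2 sit near the same level, dimm is lowest, and Pdf spreads from 292 to 93400 TPM.

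No gene of the 7 passed the test for change over time. In edgeR's quasi-likelihood F-test with Benjamini-Hochberg adjustment over 9999 genes, 0 of 7 were called for a 24-hour harmonic, for any change over the 4 times, for CT12 minus CT0 or for CT18 minus CT6, as were 0% of all genes in each test. At an unadjusted p under 0.05, the harmonic picked 1 of 7 (dimm; 5.17% of all genes) and any change picked 1 (dimm; 3.3%). CT12 minus CT0 picked 2 (svr and dimm; 2.11% of all genes, 0.82% in the lower direction), and CT18 minus CT6 picked 1 (dimm; 9.65%, 6.89% lower). DESeq2 called 0 of 7 in each of the tests, where it called 0.33%, 0.28%, 0.12% and 0.47% of all genes in the same order, and limma-voom called 0 of 7 and 0% of genes. With no filter on low counts, the edgeR fit called dimm for any change (adjusted p = 0.048) and no other of the 7 in any test. That fit called 1.84% of 13499 genes for any change, 1.85% for the harmonic, 0.748% for CT12 minus CT0 and 1.42% for CT18 minus CT6.

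The neurosecretory factor dimm measured 25.5 and 19.3 TPM for replicates 1 and 2 at CT0, 18.7 and 16.3 TPM at CT6, 15.6 and 12.98 TPM at CT12 and 6.82 and 9.20 TPM at CT18. On this scale both libraries of each time lay below both of the time before it, an order noticed after the values were seen. The 4 times were separate, in any order, for 0.6% of all genes on the TPM scale and for 0.72% on the CPM scale. In CPM, the dimm pairs were 51.8 and 35.4 (CT0), 27.4 and 36.2 (CT6), 27.2 and 22.3 (CT12), then 12.6 and 16.9 (CT18). There CT0 and CT6 overlapped, both CT12 values lay below them, and the CT18 pair stayed lowest, as it was for 6.88% of genes in CPM and 5.9% in TPM. The fitted change from CT6 to CT18 was -1.11 ± 0.33 in log2 units (SE; unadjusted p = 0.0082, edgeR adjusted p = 0.51), 0.464 of the CT6 level. From CT0 to CT12 it was -0.81 ± 0.33 (unadjusted p = 0.034, edgeR adjusted p = 1). The harmonic had an amplitude of 0.69 ± 0.17 from mean to peak with its peak at 3.58 h (unadjusted p = 0.0074, edgeR adjusted p = 0.87). Leaving out each library in turn gave CT18 minus CT6 values from -1.33 to -0.89, and CT12 minus CT0 values from -1.06 to -0.51, the last without CT0 replicate 1. The CT18 libraries also had the most negative correlations with gene length (-0.53 and -0.56). With each library's length trend removed, the CT18 minus CT6 change was -0.96 ± 0.32. In sorted cells as in tissue, fewer cells of a type and less RNA per cell cannot be told apart.

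**Figure D2:**
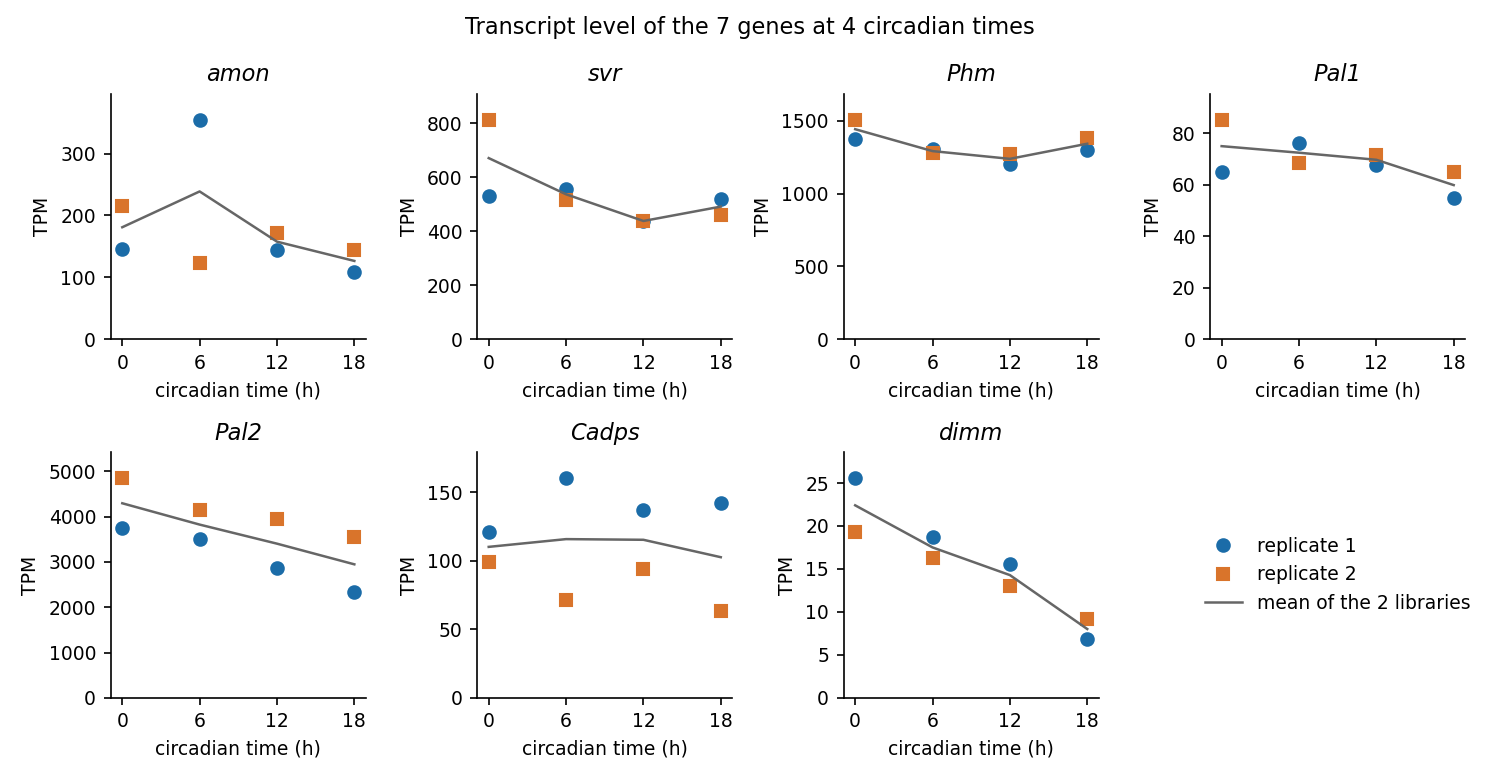
Level (TPM) of each of the 7 genes against circadian time, with circles for replicate 1, squares for replicate 2 and a line through the mean of the pair; each axis starts at 0. For dimm the pairs descend from 25.5 and 19.3 TPM at CT0 to 6.82 and 9.20 TPM at CT18, while Phm stays between 1206 and 1506 TPM.

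The convertase amon measured 146 and 216 TPM at CT0, 354 and 123 TPM at CT6, 144 and 172 TPM at CT12 and 109 and 144 TPM at CT18. A single library, CT6 replicate 1, was far above the rest, and its partner at the same time was the second lowest. The fitted CT18 minus CT6 change was -0.75 ± 0.37 in log2 units (SE; unadjusted p = 0.068, edgeR adjusted p = 0.52), and it was -0.13 without CT6 replicate 1 and -1.18 without CT6 replicate 2. The 3 libraries with the highest amon, at 898, 645 and 502 CPM, were the 3 whose deviations correlated positively with gene length, at 0.68, 0.41 and 0.47. The amon transcript is long, with an effective length above that of 81.4% of tested genes. With each library's length trend removed, the change was -0.22 ± 0.26.

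**Figure D3:**
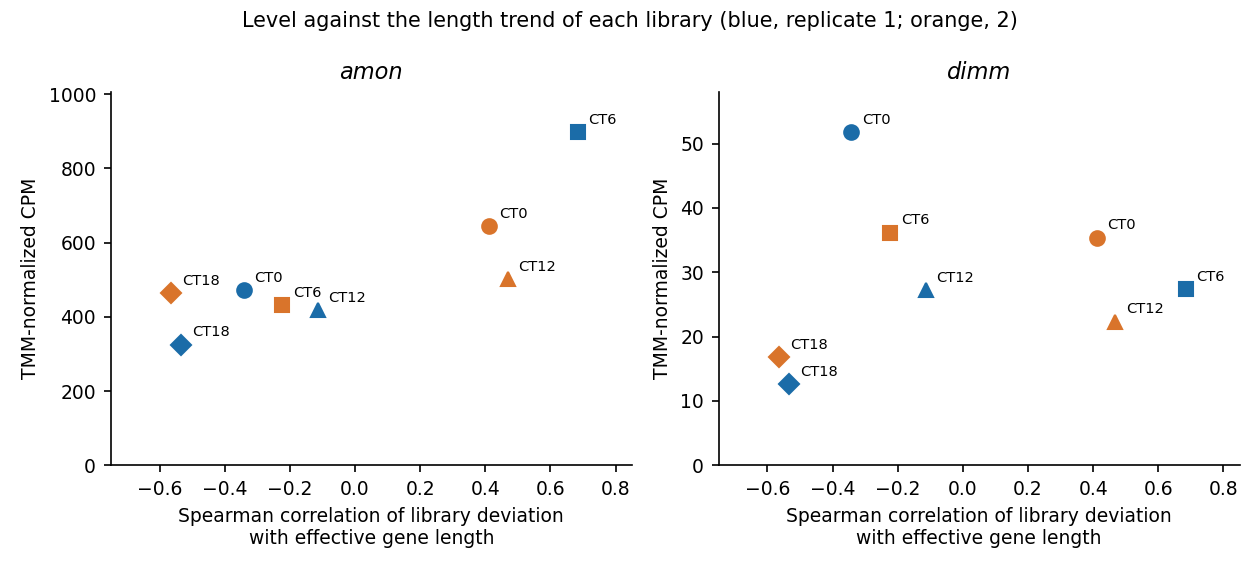
Level in CPM of amon and dimm against the Spearman correlation of each library's deviation with effective gene length, 1 point per library; shapes stand for circadian time, blue for replicate 1 and orange for replicate 2. The 3 libraries right of zero hold the highest amon values, 898, 645 and 502 CPM, and for dimm they lie between 22.3 and 35.4 CPM. The CT18 libraries, furthest left at -0.53 and -0.56, hold the lowest dimm values, 12.6 and 16.9 CPM.

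The carboxypeptidase svr measured 529 and 812 TPM at CT0, 556 and 517 TPM at CT6, 437 and 439 TPM at CT12 and 521 and 462 TPM at CT18. CT12 was the lowest pair, and the share of all genes for which it was lowest was not counted. Both CT12 values lay below both CT0 values, as for 7.32% of all genes in TPM. In CPM, CT12 held 925 and 924 against 1244 and 1754 at CT0, an order found for 13.1% of all genes. The fitted CT12 minus CT0 change was -0.70 ± 0.26 in log2 units (SE; unadjusted p = 0.024, edgeR adjusted p = 1), and -0.72 ± 0.24 with the length trend removed. It was -0.43 without CT0 replicate 2 (unadjusted p = 0.22, edgeR adjusted p = 1), and ranged from -0.92 to -0.43 over the libraries left out in turn. The CT18 minus CT6 change was -0.05 ± 0.26.

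Phm, the monooxygenase, varied least of the 7. It measured 1378 and 1506 TPM at CT0, 1304 and 1278 TPM at CT6, 1206 and 1271 TPM at CT12 and 1300 and 1384 TPM at CT18, a highest value 1.25 times the lowest. Its fitted CT12 minus CT0 change was -0.36 ± 0.23 in log2 units and its CT18 minus CT6 change 0.09 ± 0.23.

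The lyase Pal2 measured 3743 and 4843 TPM at CT0, 3502 and 4143 TPM at CT6, 2862 and 3941 TPM at CT12 and 2344 and 3548 TPM at CT18. Replicate 2 was above replicate 1 at all 4 times. In TPM both CT18 values lay below both CT0 values, and the other pairs of times overlapped. CT18 against CT0 was not tested, and the share of all genes separated in this way was not counted. The fitted changes were -0.43 ± 0.32 for CT12 minus CT0 and -0.34 ± 0.32 for CT18 minus CT6, in log2 units. The first was -0.29 without CT0 replicate 2, -0.23 without CT12 replicate 1 and -0.68 without CT12 replicate 2. The second was 0.03 without CT6 replicate 2. Its paralogue Pal1 measured 64.7 and 85.1 TPM at CT0, 76.2 and 68.5 TPM at CT6, 67.7 and 71.6 TPM at CT12 and 54.6 and 65.0 TPM at CT18. Pal1 was thus between 54.6 and 85.1 TPM throughout, and its fitted changes, -0.20 ± 0.24 and -0.23 ± 0.24, were smaller than their standard errors.

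Pal2 made up nearly all of the lyase transcript. Its share of the summed Pal1 and Pal2 TPM was 98.1% ± 0.275 (SD, n = 8), and it was between 42.3 and 60.5 times Pal1. The monooxygenase was below the lyases in every library, with Phm at 0.374 ± 0.0783 of the summed lyase TPM (range 0.304 to 0.542). By time, the ratio was 0.334 ± 0.0397 (CT0; SD, n = 2), 0.334 ± 0.0431 (CT6), 0.364 ± 0.0671 (CT12) and 0.463 ± 0.112 (CT18). Here the CT18 values overlapped those of CT12, and the ratio was not tested.

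The deposited gene length, which differs between libraries for genes with several transcripts, was also ordered for Pal2. The pairs were 1808 and 1811 bases (CT0), 1815 and 1814 (CT6), 1831 and 1822 (CT12), then 1862 and 1848 (CT18). Annotated Pal2 transcripts are 1657, 1938 and 2304 bases long, so the values lie within their range. Among 5383 tested genes whose length varied, the 4 times were separate for 0.279%, and lengths increased in the order CT0, CT6, CT12, CT18 for 0.0186%, which is Pal2 alone. This pattern was noticed after the values were seen, spans a small part of the gene's length and has no test. Pal2 exons share 592 bases with CG30183 on the opposite strand, a gene at 1.04 to 5.74 TPM, and no source used here says whether reads were counted by strand.

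Cadps measured 121 and 99.1 TPM at CT0, 160 and 71.5 TPM at CT6, 137 and 93.9 TPM at CT12 and 142 and 63.3 TPM at CT18. Replicate 1 was above replicate 2 at all 4 times, the reverse of Pal2, and the times overlapped. The fitted changes were 0.00 ± 0.41 for CT12 minus CT0 and 0.03 ± 0.41 for CT18 minus CT6, in log2 units, the widest errors of the 7. The Cadps transcript is the longest of the 7, with an effective length above that of 89.0% of tested genes. With the length trend removed, its CT18 minus CT6 value was 0.51 ± 0.42 and its harmonic amplitude 0.26 ± 0.21, against 0.015 ± 0.20 before. The pooled SD within times was 0.54 in log2 CPM for Cadps, against 0.45 for amon, 0.39 for Pal2, 0.30 for dimm, 0.22 for svr, 0.19 for Pal1 and 0.16 for Phm. Its median over all tested genes was 0.42.

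By direction alone, most of the 7 genes had lower fitted levels at CT12 than at CT0 and at CT18 than at CT6. The fitted CT12 minus CT0 change was negative for 6 of 7, with a median of -0.36 in log2 units, against 49.2% of all genes and a median of 0.00. Both CPM values were lower at CT12 than at CT0 for 5 of 7 (svr, Phm, Pal1, Pal2 and dimm; 13.1% of all genes) and higher for 0 (12%). In TPM it was 3 of 7 (svr, Phm and dimm; 7.32%) lower and 0 higher (19.9%), on a scale where the median of all genes moved to 0.12. The CT18 minus CT6 change was negative for 5 of 7, with a median of -0.23, against 51.2% and -0.02 over all genes. Both values were lower at CT18 than at CT6 for 1 of 7 in CPM (dimm; 21.6%) and 2 in TPM (Pal1 and dimm; 18.2%), and higher for 0 (20.1% in CPM and 19% in TPM). None of these changes passed the test after adjustment.

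**Figure D4:**
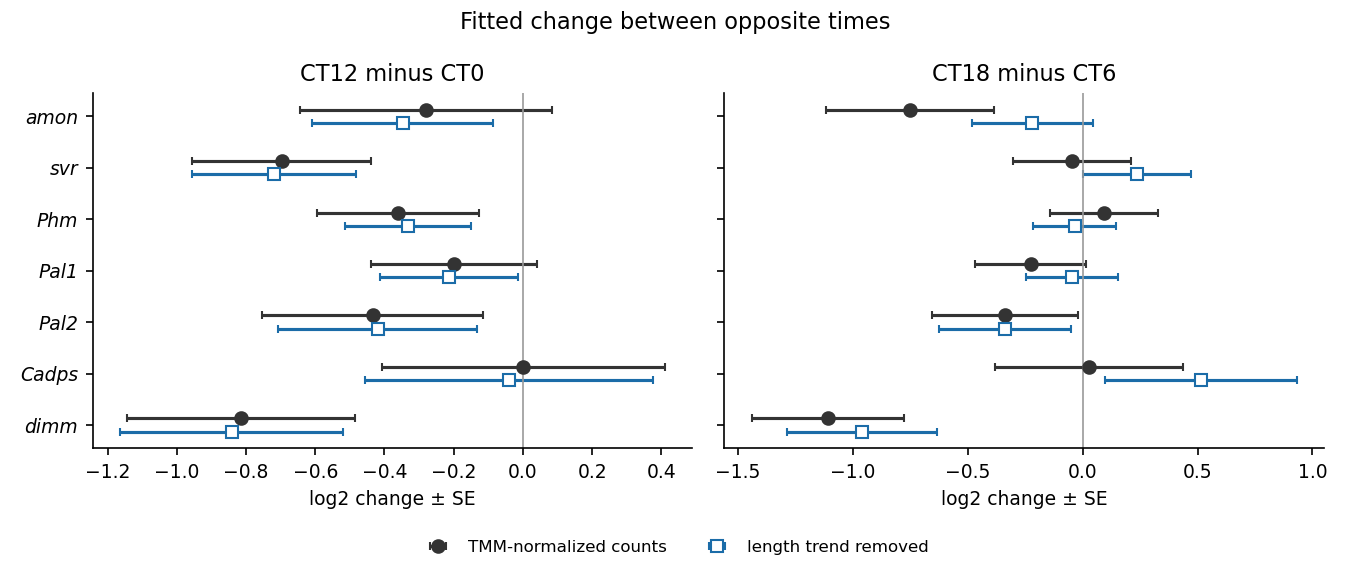
Fitted log2 change from CT0 to CT12 and from CT6 to CT18 for each gene, with SE, from TMM-normalized counts (filled circles) and with each library's length trend removed (open squares). For dimm both versions lie below zero in both panels (-0.81 and -0.84; -1.11 and -0.96), while amon moves from -0.75 to -0.22 for CT18 minus CT6.

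Other genes of the peptide pathway were taken from 8 lists with 74 genes, of which 72 were matched and 71 tested. With edgeR's quasi-likelihood test, 0 of 71 passed after adjustment in each of the 4 tests. At an unadjusted p under 0.05 there were 9 for the harmonic (5.17% of all genes) and 6 for any change (3.3%). CT12 minus CT0 had 3 such genes, 2 of them lower (2.11% of all genes, 0.82% lower), and CT18 minus CT6 had 8, all lower (9.65%, 6.89% lower). By direction alone, 48 of 71 were lower at CT12 than at CT0, against 49.2% of all genes, and 47 of 71 lower at CT18 than at CT6, against 51.2%. DESeq2 and limma-voom called 0 of 71.

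Among convertases and end-modifying enzymes, 0 of 5 passed. Fur2, a furin-type convertase, changed by a fitted -0.79 ± 0.38 from CT6 to CT18 in log2 units. QC, a glutaminyl cyclase, had a fitted CT12 minus CT0 value of 2.58 ± 1.45 at a mean of 2.82 TPM. Among genes that supply copper or electrons to Phm, 0 of 4 passed, and Atox1, a copper chaperone, had a CT18 minus CT6 value of 0.78 ± 0.35, opposite in sign to that of dimm. The copper importer Ctr1A had 0.54 ± 0.42.

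For vesicle biogenesis, 0 of 12 passed, 11 of 12 were lower at CT12 (49.2% of all genes) and 9 of 12 lower at CT18 (51.2%). Vps53, a subunit of vesicle tethering complexes, had a harmonic amplitude of 0.44 ± 0.11 and a CT18 minus CT6 value of -0.80 ± 0.22 (harmonic, unadjusted p = 0.0094, edgeR adjusted p = 0.87). The clathrin adaptor subunit AP-1gamma had -0.69 ± 0.50. In vesicle transport 0 of 6 passed, with -0.93 ± 0.34 for the kinesin heavy chain Khc and -0.98 ± 0.40 for the dynactin subunit DCTN1-p150, both for CT18 minus CT6. In replicates 1 and 2, Khc held 41.6 and 16.6 TPM at CT6, against 11.9 and 16.2 TPM at CT18. DCTN1-p150 held 12.3 and 5.18 TPM at CT6, against 3.71 and 4.47 TPM at CT18.

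In the release machinery 0 of 15 passed and 13 of 15 were lower at CT18 than at CT6, with a median of -0.30, against 51.2% and a median of -0.02 over all genes. The calcium sensors Syt4 and Syt1 had CT18 minus CT6 values of -0.93 ± 0.29 and -0.83 ± 0.27 (harmonic, unadjusted p = 0.028 and 0.030, edgeR adjusted p = 0.87 for each). At CT6, Syt4 held 555 and 295 TPM and Syt1 411 and 191 TPM in replicates 1 and 2. At CT18 they held 185 and 224 TPM, and 156 and 123 TPM. Deviations correlated most positively with gene length in CT6 replicate 1 (0.68), and most negatively in the CT18 libraries (-0.53 and -0.56). Over all tested genes, removing each library's length trend cut those lower at CT18 with an unadjusted edgeR p under 0.05 from 689 to 345. Whether the trend bears on the values of the release genes was not tested. Of 5 regulators of the secretory state 0 passed, with -1.12 ± 0.39 for Chi, a cofactor of LIM-homeodomain factors, and -0.41 ± 0.30 for Xbp1, a factor of the unfolded protein response. Chi held 54.3 and 25.6 TPM in replicates 1 and 2 at CT6, against 13.6 and 21.6 TPM at CT18. Of 4 tested peptidases that degrade peptides 0 passed, with -1.10 ± 0.77 for Nep2 and 0.43 ± 0.42 for Nep3.

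By median, the peptide precursors had wider ranges between libraries than the genes that process and release them, though single genes overlapped. Their 20 genes made up between 3.93% and 13.1% of TPM per library. For the 7 genes, the highest TPM was 1.25 to 3.75 times the lowest, with a median of 2.07, against a median of 1.89 for 5496 tested genes with a mean of at least 10 TPM and no value of 0. For the 19 precursors with no value of 0 the median was 5.73, the lowest 1.96 and the highest 1395. Medians were wider for markers of clock neurons (6.73), glia (15.5), hemocytes (16.7), other neurosecretory cells (17.8) and photoreceptors (84.2). They were 1.82 for neuron markers and 4.54 for fat body markers, so wide ranges were not particular to precursors. Among the other convertases and end-modifying enzymes, QC reached 84.6, at a mean of 2.82 TPM. The within-time SD had a median of 0.80 in log2 CPM for precursors and 0.30 for the 7 genes, equal to that of genes with a mean of at least 10 TPM. Of the 20 precursors 0 passed. Mip had a CT12 minus CT0 value of -1.31 ± 0.43 (harmonic, unadjusted p = 0.015, edgeR adjusted p = 0.87), and Lk, the leucokinin precursor, had a CT18 minus CT6 value of -7.67 ± 2.32 (harmonic, unadjusted p = 0.011, edgeR adjusted p = 0.87). For Lk, CT6 replicate 1 held 3570 TPM and replicate 2 held 22.4 TPM, against 4.65 and 10.99 TPM at CT18. With no filter on low counts, the edgeR fit called 8 pathway genes for the harmonic, 10 for any change, 4 for CT12 minus CT0 and 6 for CT18 minus CT6, all of them precursors. For the precursor Trissin, replicates 1 and 2 at CT12 held 31.5 and 6468 TPM, against 1366 to 4308 TPM at the other times.

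**Figure D5:**
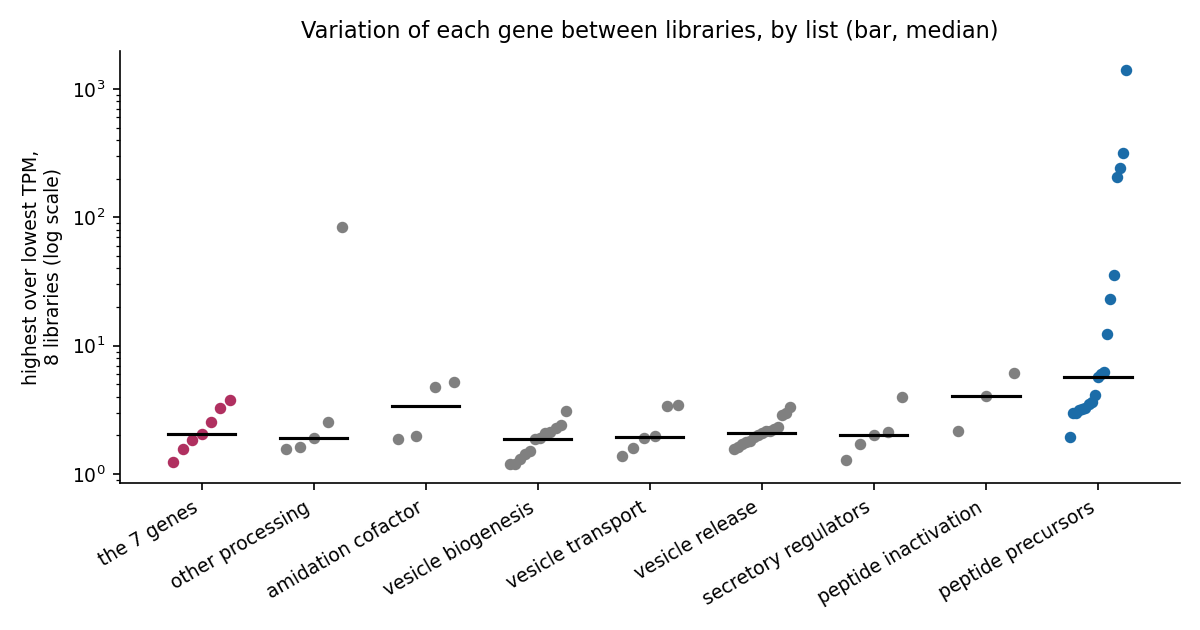
Highest over lowest TPM among the 8 libraries (log axis) for each tested gene with no value of 0, by list, with the median as a bar. The 7 genes lie between 1.25 and 3.75, while precursors run from 1.96 to 1395.

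Between the 7 genes, log2 CPM over the 8 libraries was most alike for Pal1 and Pal2 (Pearson r = 0.93) and for svr and Phm (r = 0.79). Pal2 and Cadps ran most opposite (r = -0.69), and dimm had r = 0.71 with Pal1 and 0.37 with Phm. These are descriptions over libraries that share depth, length trend and time. Among all tested genes, the 2 most alike were GABA-B-R2 and mEFTu1 for amon (r = 0.98 each), sesB and sip3 for svr (0.93 and 0.91), and CG10365 and Dhpr for Phm (0.95 and 0.94). They were CG5862 and colt for Pal1 (0.98 and 0.96), SMSr and l(1)G0320 for Pal2 (0.95 each), and anne and lncRNA:CR44458 for Cadps (0.98 and 0.97). For dimm they were CG13404, at a mean of 1.01 TPM, and CG13248, at 431 TPM (r = 0.92 each).

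By the annotation of the same coordinate system as dm6, amon (FBgn0023179) lies on chromosome 3R from 26697697 to 26714159, on the minus strand, with 12 exons in 1 transcript. svr (FBgn0004648) lies on X from 496446 to 509072, on the plus strand, with 11 transcripts. Phm (FBgn0283509) lies on 2R from 23985175 to 23988455, minus strand, Pal2 (FBgn0262728) on 2R from 23688077 to 23690838, plus strand, and Pal1 (FBgn0283510) on 2R from 9959549 to 9963853, plus strand. Cadps (FBgn0053653) lies on chromosome 4 from 1230837 to 1271759, plus strand, with 23 to 25 exons. dimm (FBgn0023091) lies on 2L from 21331756 to 21342155, plus strand, with 2 transcripts. Exons of Pal1 share 117 bases with Pdrg1 (17.5 to 188 TPM) and 19 bases with CG1418 (49.0 to 76.6 TPM) on the opposite strand. Exons of svr share bases with asRNA:CR44891, which was at 0 in all libraries, and with asRNA:CR44892, at 1.15 to 3.68 TPM. Exons of Phm share 3 bases with Sox14 on the opposite strand. Exons of amon, Cadps and dimm overlap no other gene.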

How the data were processed

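Polyadenylated RNA of sorted clock neurons was sequenced in 8 libraries, as paired ends of 100 bp per the labels. The deposited gene tables have Salmon's layout. Per the file headers, the authors' tables hold TPM values and estimated counts (expected counts, not normalized), with gene lengths. The submitters' processing notes name DRAGEN, Salmon and dm6; their roles, versions and strand setting are not given. Samples were grouped by the circadian time in the labels.

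Estimated counts were rounded, genes kept by edgeR's filterByExpr (minimum count 10; 9999 of 13499 genes with a count), and TMM factors applied. edgeR 4.0.16 (R 4.3.3) quasi-likelihood F-tests, two-sided, were fitted to the 8 libraries by time, leaving 4 residual degrees of freedom, with Benjamini-Hochberg adjustment over all genes at 0.05. The step was first tested on simulated data. Levels use deposited TPM. The alternatives were RLE factors, no filter, 5 CPM in 2 libraries, DESeq2 1.42.0, limma-voom and limma (3.58.1) on log2 TPM with pseudocounts of 1 and 0.1, a replicate block, removal of each library's lowess length trend (span 0.3), and leaving out each library. Levels and ratios were recomputed as reads per kilobase.

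The members and lists were chosen with earlier results of these data known. Named pathway genes are the 2 with the smallest harmonic p in each list; Trissin, 7B2 and Pdf were named after their values were seen. Gene positions come from Ensembl release 115 (BDGP6.54), which may differ from the authors' annotation. Scripts ran in Python 3.11.15.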

Additional observations from a re-analysis of the deposited data

How the results depend on the processing

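Each of the 4 counts of called members was 0 of 7 under every alternative run, except that any change had 1 (dimm) without the filter on low counts. Of 476 alternative values for the members' effects, 457 kept their direction and their side of the threshold. The harmonic amplitude and the range over the times cannot be negative, so only the CT12 minus CT0 and CT18 minus CT6 values could reverse. As the main fit called 0 genes, a value could change its side only by being called. Leaving out each library gave counts of called members from 0 to 0. Over all genes, edgeR called 0 in each test, 250, 249, 101 and 192 without the filter (harmonic, any change, CT12 minus CT0, CT18 minus CT6), and 33, 28, 12 and 47 were called by DESeq2. The 18 values that reversed were not past the threshold before or after, and the cause was not tested. Cadps CT12 minus CT0 was -0.0073 without the filter, -0.0090 with limma-voom and -0.041 with the length trend removed, and ranged from -0.33 to 0.27 with a library left out. Cadps CT18 minus CT6 was -0.035 with limma-voom and -0.17 on log2 TPM with either pseudocount, with a range of -0.64 to 0.49 with a library left out, and 0.51 with the length trend removed. With the length trend removed, CT18 minus CT6 was 0.24 for svr and -0.034 for Phm. With a library left out, it ranged from -0.23 to 0.16 for svr, from -0.091 to 0.31 for Phm and from -0.73 to 0.033 for Pal2. With the replicate block, Cadps had -0.018 and -0.024 for the 2 changes, and no member was called. The block narrowed the SE of CT12 minus CT0 from 0.41 to 0.24 for Cadps. For Pal2 it went from 0.32 to 0.19, with a change of -0.45 (unadjusted p = 0.045, edgeR). For amon and dimm the SE widened slightly, to 0.37 and 0.34. Whether replicate numbers pair the samples is not in the labels. Differences of replicate 1 minus replicate 2 correlated between -0.21 and 0.56 across pairs of times, which does not settle it. Depth limits dimm most, with 325 counts in the lowest library.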
